A study of Homo sapiens with 2 samples.

Results

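Genes of cholesterol and fatty acid synthesis were compared between Ca9-22 cells carrying a DLEU1 vector and Ca9-22 cells carrying a control vector. The Ca9-22 line comes from a squamous carcinoma of the mouth (OSCC), and DLEU1 is a long noncoding RNA, whose cDNA for the vector was cloned from KON, another OSCC line. Both cultures were infected with a lentiviral vector and selected with blasticidin (6 mg/ml as the labels give it) for 2 weeks. The study's methods describe the lentiviral control as an empty vector, and no source used here calls either culture a single clone. Each group had 1 culture and 1 array (1-colour, 100 ng of total RNA), so no test was possible, and precision is limited by there being 1 array per vector. The members were 35 genes listed by symbol for their place in sterol synthesis, fatty acid synthesis, or the SREBP and LXR pathways. The rule of the list did not use their measured values, but earlier results of these data were known when it was chosen. All 35 had a probe (44 probes in all) among the 43317 gene names on the array. A total of 34 were well above background on both arrays, as were 20246 of all gene names, and ABCG1 was not well above background on either.

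Cells make cholesterol from acetyl-CoA. A first set of enzymes builds mevalonate and joins isoprene units into squalene, and a second set closes squalene into a ring and trims it to cholesterol. When sterols in the endoplasmic reticulum run low, SCAP carries the SREBP transcription factors to the Golgi, where they are cut and released to the nucleus. INSIG proteins hold SCAP back when sterols are plentiful. SREBP-2, from SREBF2, mainly drives sterol genes, and SREBP-1c, from SREBF1, mainly drives fatty acid genes. LXR receptors sense oxidised sterols and turn on cholesterol export. In stratified epithelium, cholesterol and fatty acids are also building blocks of the lipid barrier.

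Differences are given as DLEU1 vector minus control vector on the log2 scale, after the 75th percentile of each array was subtracted. A difference of 1 is 2-fold, which served as the rule of size. The value of a gene is that of its brightest probe that was well above background on both arrays. Replicated spots of a probe differed with an SD of 0.080 in this log2 difference (282 probes), and the error that the extraction software assigns to a difference was 0.20 to 0.21 for the 34 members. Neither error holds the variation between cultures.

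Of the 34 members, 5 were at least 2-fold higher with the DLEU1 vector and 2 at least 2-fold lower. The higher genes were TM7SF2, SC5D, MSMO1, SREBF1 and ABCA1, and the lower genes were ELOVL6 and ACAT2. Among all 20246 genes, the share past 2-fold was 9.18% towards higher and 9.78% towards lower, against 14.7% and 5.88% of the members. A total of 22 members (64.7%) lay above 0 and 12 below it, whereas 45.8% of all genes lay above 0. The median difference was 0.31 over the members and -0.070 over all genes. Ranked among all genes, 14 members lay above the upper quartile of differences and 4 below the lower quartile, counts that a constant shift of either array leaves as they are. INSIG1 (0.97), SREBF2 (0.93) and NR1H2 (0.81) were the members just under 2-fold, and ABCA1 (1.05), MSMO1 (1.09) and SREBF1 (1.13) those just over it. Scaling on spike-in RNA, which shifted the median of all genes by -0.46, left 1 member at least 2-fold higher and 4 lower (4.56% and 24.1% of all genes) and turned the member median to -0.15, with 22 members still above the median of all genes. Median scaling left 3 higher and 2 lower (7.73% and 12.1% of all genes). In bulk RNA, fewer cells of a kind and less RNA per cell cannot be told apart.

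**Figure D1:**
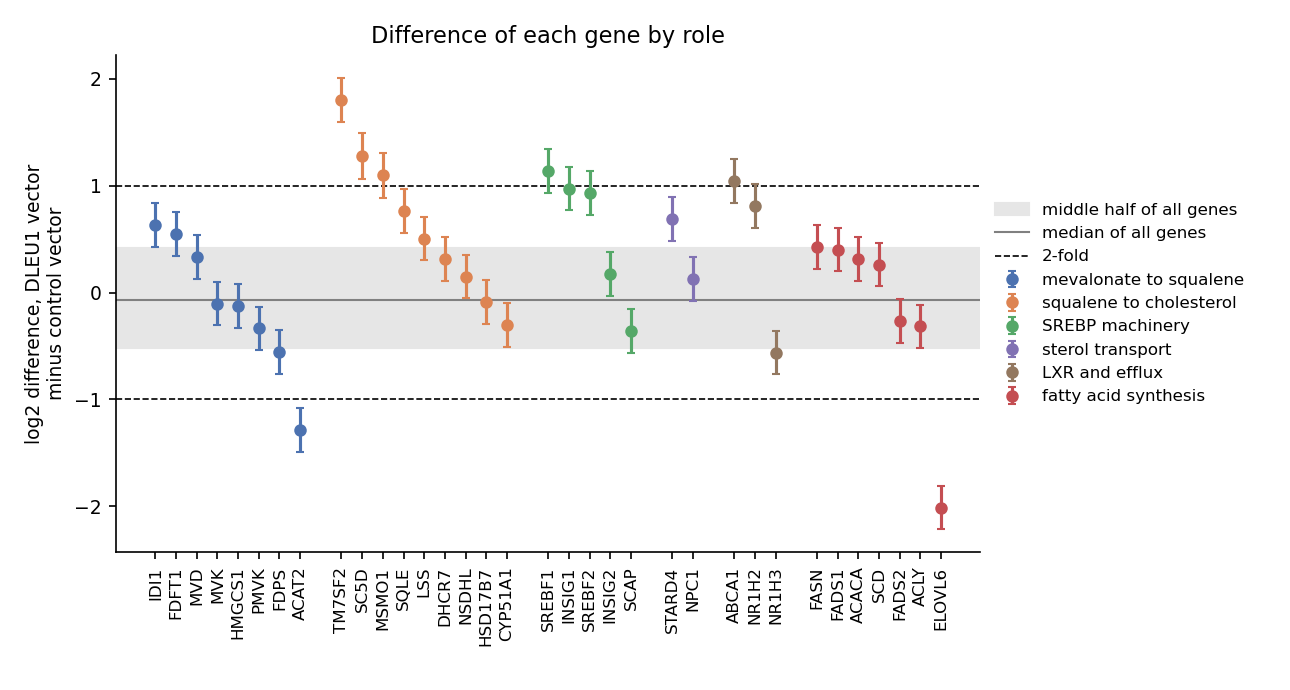
Log2 difference (DLEU1 vector minus control vector) of the 34 genes detected on both arrays, grouped by role. Points are the brightest probe on 1 array per group, bars are the error assigned by the extraction software, the grey band runs between the quartiles of all genes (-0.52 to 0.41), and dashed lines mark 2-fold. TM7SF2 is the highest point and ELOVL6 the lowest.

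Promoters are shown because SREBPs act through short DNA motifs close to the start of a gene. They are those of the members past 2-fold that have an entry (ACAT2 has none), and of SREBF2 and INSIG1, SREBP regulators just under 2-fold. The promoter of NR1H2, an LXR gene also just under 2-fold, is not printed, and none of the motifs below was found in it. Each printed promoter is the RefSeq window of the 250 bases before an annotated start (GRCh38.p14), 5′ to 3′ on the strand of the gene. Capitals mark the letters found on either strand of the core of the sterol regulatory element (TCACNCCAC), of the E-box (CACGTG), which SREBPs can also bind, and of the CCAAT box (CCAAT, or ATTGG on the other strand), which NF-Y binds. SREBF1, SREBF2 and INSIG1 are regulators, TM7SF2, SC5D and MSMO1 late sterol enzymes, ABCA1 an exporter and ELOVL6 the gene that was lowest. The single windows of SREBF1, which was higher, and ELOVL6 held none of these letters. Other starts of these genes were not searched, and which SREBP-1 form begins at the SREBF1 window was not analysed.
SREBF1 (chr17:17836987-17837236, minus strand): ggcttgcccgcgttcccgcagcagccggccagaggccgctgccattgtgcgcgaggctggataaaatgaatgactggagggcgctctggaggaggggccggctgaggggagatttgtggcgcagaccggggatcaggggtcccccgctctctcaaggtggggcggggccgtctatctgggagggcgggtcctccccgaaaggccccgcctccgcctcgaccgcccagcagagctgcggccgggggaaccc
SREBF2 (chr22:41832855-41833104, plus strand): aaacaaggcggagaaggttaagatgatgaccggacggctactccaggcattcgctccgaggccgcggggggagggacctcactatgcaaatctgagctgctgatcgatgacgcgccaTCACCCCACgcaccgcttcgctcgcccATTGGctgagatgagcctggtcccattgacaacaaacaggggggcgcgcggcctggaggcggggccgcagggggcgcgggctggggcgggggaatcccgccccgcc
INSIG1 (chr7:155297628-155297877, plus strand): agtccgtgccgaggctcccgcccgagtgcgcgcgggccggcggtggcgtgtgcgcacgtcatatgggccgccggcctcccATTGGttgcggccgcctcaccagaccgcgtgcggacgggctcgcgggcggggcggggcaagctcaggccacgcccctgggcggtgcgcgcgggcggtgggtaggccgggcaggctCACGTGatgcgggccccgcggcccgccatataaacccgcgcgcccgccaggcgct
TM7SF2 (chr11:65111622-65111871, plus strand): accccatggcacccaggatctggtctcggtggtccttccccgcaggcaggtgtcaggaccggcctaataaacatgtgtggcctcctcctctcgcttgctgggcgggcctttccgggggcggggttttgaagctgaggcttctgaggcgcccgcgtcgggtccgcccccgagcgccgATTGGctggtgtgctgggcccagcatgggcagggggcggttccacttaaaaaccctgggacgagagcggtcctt
SC5D (chr11:121292521-121292770, plus strand): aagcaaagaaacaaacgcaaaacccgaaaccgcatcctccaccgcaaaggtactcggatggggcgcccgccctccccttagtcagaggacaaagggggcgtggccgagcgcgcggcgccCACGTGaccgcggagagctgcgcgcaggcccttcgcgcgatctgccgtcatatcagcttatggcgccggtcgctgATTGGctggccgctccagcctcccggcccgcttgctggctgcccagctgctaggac
MSMO1 (chr4:165327419-165327668, plus strand): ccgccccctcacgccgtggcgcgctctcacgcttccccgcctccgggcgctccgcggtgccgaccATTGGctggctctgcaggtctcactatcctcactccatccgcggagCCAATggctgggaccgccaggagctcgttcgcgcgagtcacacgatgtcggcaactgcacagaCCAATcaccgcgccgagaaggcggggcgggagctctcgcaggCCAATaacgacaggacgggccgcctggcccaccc
ABCA1 (chr9:104928156-104928405, minus strand): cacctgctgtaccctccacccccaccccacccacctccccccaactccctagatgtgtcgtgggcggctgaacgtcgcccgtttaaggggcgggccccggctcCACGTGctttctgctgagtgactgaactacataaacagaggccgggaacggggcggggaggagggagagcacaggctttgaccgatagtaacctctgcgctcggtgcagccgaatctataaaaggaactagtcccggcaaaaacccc
ELOVL6 (chr4:110198616-110198865, minus strand): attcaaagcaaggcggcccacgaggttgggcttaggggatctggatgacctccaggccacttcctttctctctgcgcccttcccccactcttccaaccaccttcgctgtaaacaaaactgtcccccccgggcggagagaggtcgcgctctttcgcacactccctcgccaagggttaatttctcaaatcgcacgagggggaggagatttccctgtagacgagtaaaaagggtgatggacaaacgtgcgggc

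A total of 30 of the 35 members had an entry (43 windows), and ACAT2, FDFT1, SQLE, ABCG1 and FASN had none. A gene was counted where any of its windows held the letters. SC5D had a second window, not printed, which overlapped the printed one and held the same E-box and CCAAT box. The sterol regulatory element core was found in 1 member, SREBF2, where it lay 133 to 125 bases before the start, and in 1.09% of all 27305 genes. The E-box was found in 4 members (SC5D, SCAP, INSIG1 and ABCA1), or 13.3%, and in 7.73% of all genes. The CCAAT box was found in 19 members, or 63.3%, and in 37.0% of all genes. The MSMO1 window held 4 CCAAT boxes, 1 of them on the other strand. These are matches of letters and not measured binding. Probe positions in what follows are hg19, and where each probe lies within its transcript (exon, intron or UTR) was not analysed here.

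The early enzymes, from acetyl-CoA to squalene, lay on both sides of 0. Of 8 genes, 3 lay above 0 and 5 below, with a median difference of -0.11. That median was above 0 with quantile normalization (0.021) and loess (0.048) and -0.58 with spike-in scaling. The gene that stood apart was ACAT2, the cytosolic thiolase that joins the first acetyl units. Its probe (hg19 chromosome 6, 160199814 to 160199873) gave a processed signal of 6166 in control vector cells and 2464 in DLEU1 vector cells, so it was 2.44-fold lower (-1.29), and only 5.50% of all genes were lower still. FDPS, which makes farnesyl diphosphate and has processed pseudogenes of similar sequence, went from 14578 to 9650 (-0.56) and passed 2-fold lower with spike-in scaling (-1.02). PMVK, the second kinase of the pathway, went from 5312 to 4099 (-0.34). Its spot lay in a strip of low spots on the DLEU1 vector array (columns 36 to 40), where 22.3% of the 624 spots with signal were 2-fold lower, against 11.2% outside. Of the 45 such spots in the strip within 16 rows of PMVK, 6.67% were 2-fold lower. HMGCS1, which condenses acetoacetyl-CoA to HMG-CoA and is a standard SREBP-2 target, had a signal of 511 and 457 (-0.12). MVK, the first kinase, had 11762 and 10670 (-0.10). Both lay within 2 spot SDs of 0, and MVK turned to 0.15 with loess. On the other side, IDI1, the isomerase of isopentenyl diphosphate, went from 530.05 to 798 (0.63), FDFT1, the squalene synthase, from 3447 to 4900 (0.55), and MVD, the decarboxylase, from 939 to 1150.1 (0.33, but -0.13 with spike-in scaling).

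**Figure D2:**
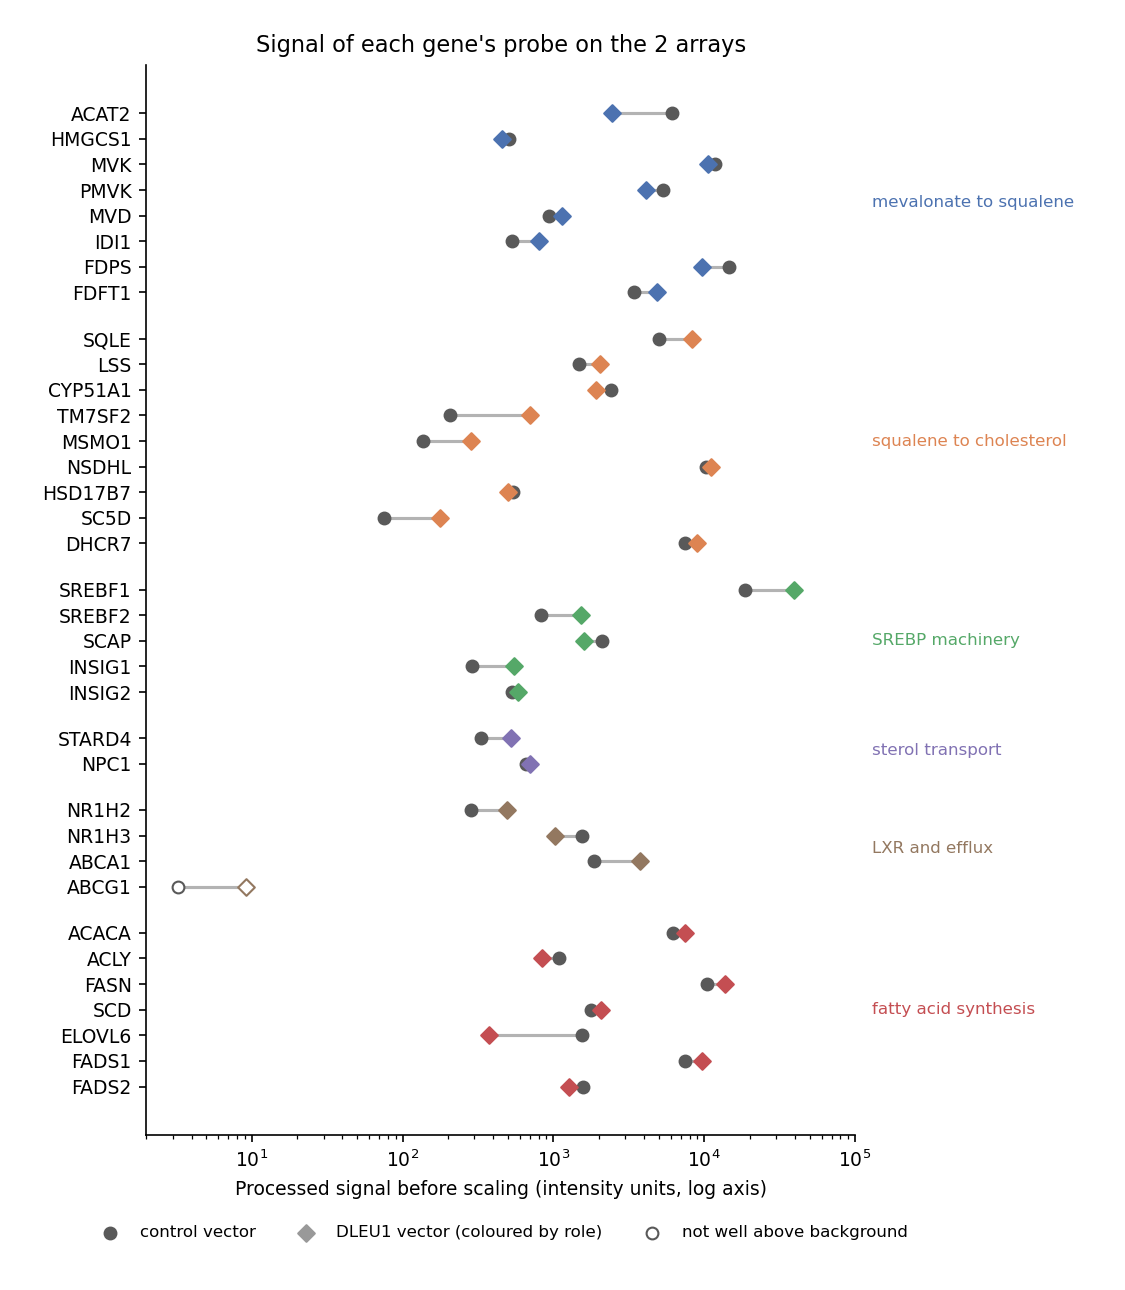
Processed signal of the 35 genes on the control vector array (circles) and the DLEU1 vector array (diamonds), on a log axis and before scaling, with hollow symbols where the probe was not well above background. Signals of different probes cannot be compared with each other. Among the detected genes, the longest bars are those of ELOVL6 and ACAT2 towards lower signal and of TM7SF2 towards higher signal. ABCG1 is hollow on both arrays, and its long bar joins signals that were not well above background.

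Of the 9 late enzymes, from squalene to cholesterol, 7 lay above 0, 3 of them at least 2-fold, and 2 lay below 0, with a median difference of 0.50 (0.041 with spike-in scaling). Whether this median differs from that of the early enzymes was not tested. TM7SF2, a sterol C14 reductase, had the largest increase of all members. Its signal went from 208 to 706, or 3.49-fold (1.80), on a probe at chromosome 11, 64880991 to 64881050, and 97.2% of all genes had a smaller difference. SC5D, the sterol C5 desaturase, went from 75.5 to 178 (2.42-fold, 1.28). MSMO1, the C4 methyl sterol oxidase, went from 138 to 286 (2.14-fold, 1.09). With normexp background correction SC5D was at 0.83 and MSMO1 at 0.84, both under 2-fold, while TM7SF2 was over it under all 15 alternatives in scaling, background, filter and probe choice. MSMO1 was also under 2-fold with median scaling (0.98) and with the local median of the 100 nearest spots taken off (0.98), and SC5D and MSMO1 with spike-in scaling (0.81 and 0.63).

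SQLE, the epoxidase that is a rate-limiting step after squalene, went from 5020.4 to 8311 (1.70-fold, 0.76) and passed 2-fold with loess (1.01). LSS, which closes the ring, went from 1483 to 2049 (0.50), and its dimmer second probe differed by 0.71. Both DHCR7 and NSDHL turned negative with spike-in scaling (-0.15 and -0.31). DHCR7, which reduces 7-dehydrocholesterol to cholesterol, differed by 0.32 (7421 and 8995) and NSDHL, a C4 decarboxylating dehydrogenase, by 0.15 (10334 and 11165). CYP51A1, the C14 demethylase, went the other way, from 2410.1 to 1905 (-0.30). HSD17B7, the C3 ketoreductase, has a closely related pseudogene, and its 4 probes did not give one value. They ranged from -0.09 on the brightest to 0.83 on the dimmest, and the mean of the 4 was 0.30.

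The regulators of the pathway gave some of the higher values. Of the 5 genes of the SREBP machinery, 4 lay above 0, with a median difference of 0.93 (0.55 with the mean or median of a gene's probes and 0.47 with spike-in scaling). SREBF1 went from 18551 to 39687 (2.20-fold, 1.13) on its bright probe at chromosome 17, 17715419 to 17715478. A second SREBF1 probe at 17715304 to 17715363 had 391 and 373 (-0.03). These neighbouring probes lay 1.16 apart. The SD between probes of a gene was 0.47 pooled over 4674 genes, which is a spread around the mean and not a gap between 2 probes. The mean of both probes was 0.55, under 2-fold, so the call on SREBF1 rests on the bright probe. Spike-in scaling also ended it (0.67). SREBF2 went from 827 to 1533 (1.90-fold, 0.93) and INSIG1, itself an SREBP target, from 289 to 552 (1.96-fold, 0.97). Both passed 2-fold when detected probes alone set the 75th percentile (1.04 and 1.08), and with quantile normalization (1.02 and 1.01) and loess (1.04 and 1.03). INSIG2 differed by 0.17 (-0.29 with spike-in scaling) and its second probe by 0.31. SCAP, the escort protein, went from 2106 to 1602 (-0.36).

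Of the sterol transport genes, STARD4, which carries cholesterol through the cytosol, went from 334 to 525 (1.61-fold, 0.69). NPC1, which lets cholesterol out of the lysosome, had a probe with 10 spots on each array. These spots ranged from 630.2 to 683 (median 656) in control vector cells and from 679 to 742 (median 698) in DLEU1 vector cells. The difference was 0.13 ± 0.039 (SD over 10 spots of 1 array pair), and all 10 spots lay above 0, from 0.063 to 0.18. With spike-in scaling the NPC1 value turned to -0.33, so its direction depends on the scaling.

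Of the LXR genes, the receptors went opposite ways. NR1H2, which encodes the widely expressed LXR-beta, went from 286 to 489 (1.75-fold, 0.81), and NR1H3, which encodes LXR-alpha, from 1554 to 1026 (-0.56), which passed 2-fold lower with spike-in scaling (-1.02). The exporter ABCA1, an LXR target, went from 1868 to 3755 (2.06-fold, 1.05) on its bright probe at chromosome 9, 107543704 to 107543763. A dimmer probe at 107624012 to 107624071 went from 109 to 218 (1.04), so both probes of ABCA1 gave the same size. ABCA1 was under 2-fold with spike-in scaling (0.58), median scaling (0.93) and normexp (0.96). ABCG1, another sterol exporter, had a signal of 3.23 and 9.22, neither well above background, so no fold is given.

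**Figure D3:**
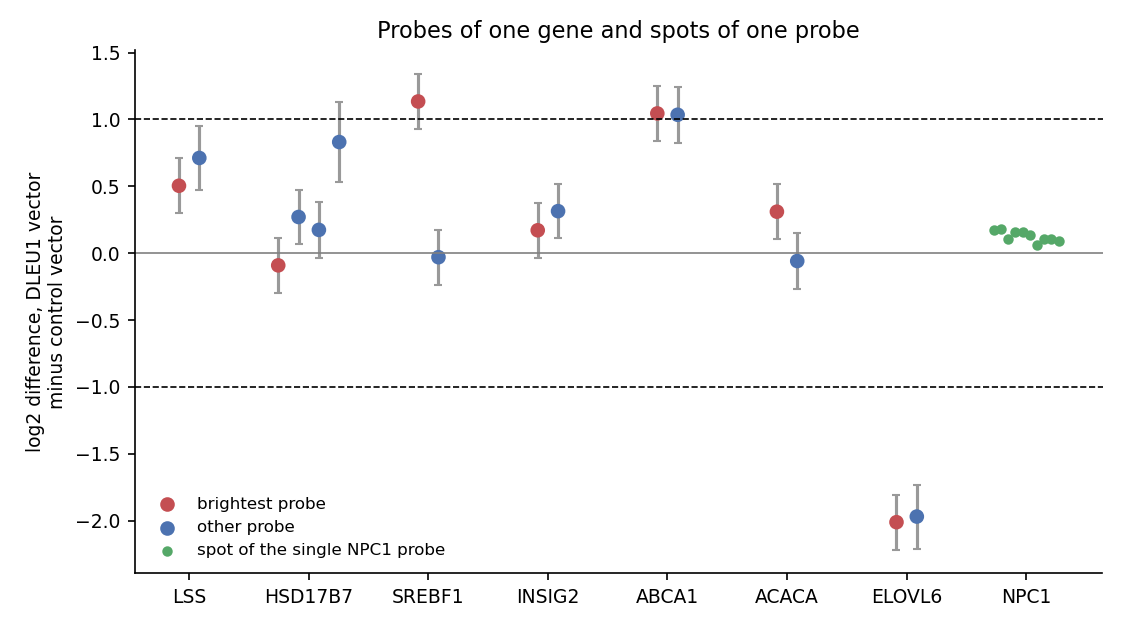
Log2 difference (DLEU1 vector minus control vector) of each detected probe of the 7 genes with several, with bars for the error assigned by the software, and of each of the 10 spots of the NPC1 probe. The probes of ABCA1 and of ELOVL6 fall on each other, those of SREBF1 lie 1.16 apart, and the NPC1 spots lie between 0.063 and 0.18.

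The fatty acid genes held the lowest value of the list. ELOVL6, which lengthens saturated and monounsaturated chains and is a known SREBP-1c target, went from 1559 to 377 with the DLEU1 vector (4.03-fold lower, -2.01) on a probe at chromosome 4, 110971171 to 110971230. A second probe at 110967426 to 110967485 went from 152 to 37.8 (-1.97). Both probes moved together, only 1.90% of all genes were lower, and ELOVL6 and ACAT2 were at least 2-fold lower under all 15 such alternatives. The other 6 genes lay within 2-fold. FASN, the fatty acid synthase, went from 10496 to 13718 (0.42), FADS1, the delta-5 desaturase, from 7508 to 9667 (0.40), ACACA, the carboxylase that commits acetyl-CoA to fatty acids, from 6209 to 7503 (0.31), and SCD, the stearoyl-CoA desaturase, from 1784 to 2082 (0.26). ACACA had a dimmer second probe at -0.06, and these 4 genes turned negative with spike-in scaling. ACLY, which makes cytosolic acetyl-CoA from citrate, went from 1084 to 847 (-0.32) and FADS2, the delta-6 desaturase next to FADS1, from 1574 to 1274 (-0.27). The median of the 7 fatty acid genes was 0.26, and -0.20 with spike-in scaling.

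Other genes of these pathways lay on both sides of 0. Their lists did not use the values as a rule, but were chosen with earlier results of these data known. Of 18 further sterol genes, 17 were detected, 2 were higher by 2-fold or more and 2 lower, and the median difference was 0.0033. These counts are 11.8% each way, near the shares of all genes (9.18% higher and 9.78% lower). STARD5, a sterol carrier, was the highest (640 and 1894, 1.60) and TMEM97, which binds NPC1, the lowest (1597 and 459, -1.76). The others past 2-fold were MYLIP (1.06), a ubiquitin ligase that LXR turns on, and LBR (-1.37), the nuclear membrane protein that is the other sterol C14 reductase beside TM7SF2. LBR went from 8054 to 3032 while TM7SF2 was higher, and the probe of each was outside the strip of low spots. Of 15 further lipid genes, 14 were detected, 1 was at least 2-fold higher (7.14%) and 0 lower, and the median was -0.018. FADS3 was the highest (1.21, on a probe in that strip) and the elongase ELOVL5 the lowest (-0.81).

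**Figure D4:**
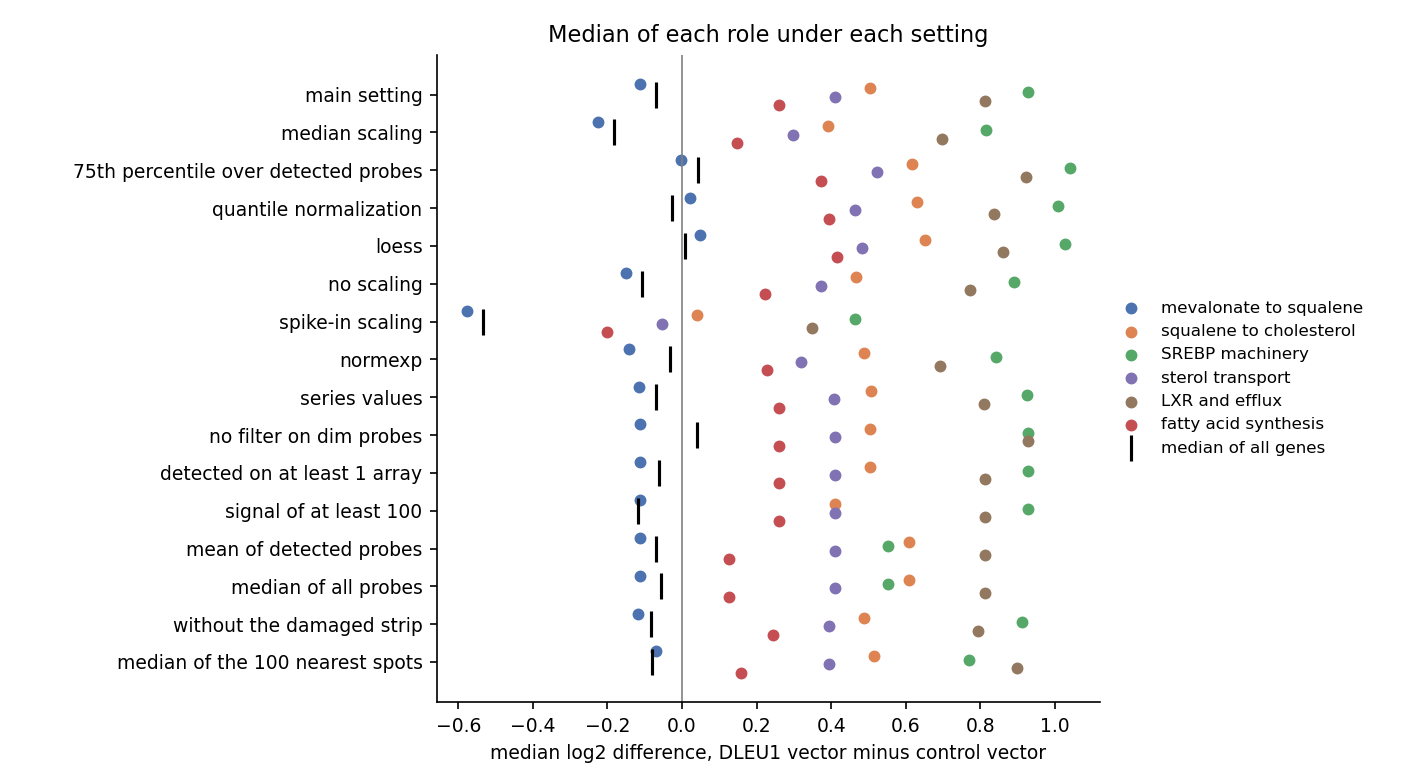
Median log2 difference (DLEU1 vector minus control vector) of the 6 roles under each scaling, background correction and filter, with black bars for the median of all genes; the damaged strip is the strip of low spots. Every role but mevalonate to squalene lies right of the black bar under every setting shown, and spike-in scaling moves all points left. Sterol transport rests on 2 detected genes and LXR and efflux on 3.

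Several facts of the whole series bear on these values. The DLEU1 probe went from 2178 to 14156 (6.67-fold), higher in the culture labelled for it. Of 58201 probes, 47.6% were detected for the control vector and 48.1% for DLEU1, and 0 spots were saturated on either array. All 11 keratinocyte and epithelial markers were detected on both arrays, their summed signal going from 148108 to 473182. With the DLEU1 vector 7 were at least 2-fold higher, as were 9.18% of all genes, among them KRT14 (2.85) and KRT17 (3.09). The others lay within 2-fold: TP63 (0.96), KRT8 (0.18), ITGB4 (-0.09) and KRT18 (-0.93). Of 6 fibroblast markers, 2 were detected in control and 3 in DLEU1 vector cells (summed signal 375 and 5292, nearly all of it COL1A1), while COL1A2, COL3A1 and DCN were not well above background. The 4 immune markers with a probe summed to 302 and 247 (3 detected on each array, CD3E on neither), the 4 endothelial markers to 111 and 652 (2 on each, VWF the higher, PECAM1 and KDR on neither), the 4 adipocyte markers to 560.1 and 464 (1 on each, ADIPOQ, LEP and PLIN1 on neither) and the 4 hepatocyte markers to 39.5 and 28.5 (1 on each, ALB, APOB and TTR on neither). The part of the keratinocyte and epithelial marker differences in the lipid gene values was not tested.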

How the data were processed

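Cy3-labelled RNA of 2 cultures was measured on 1 Agilent array each. The intensity values deposited are spot signals from the scanner software (Agilent Feature Extraction 10.7.3.1), already corrected for background on each array, with flags for each spot. GeneSpring was the software the authors used for analysis. The deposited value table differed from the spot signals by at most 0.497%.

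Control spots and outlier spots (84 and 103) were left out. The log2 signal was averaged over the spots of a probe, and the 75th percentile over 58201 probes (7.92 and 7.88) was subtracted. A probe was detected where most of its spots were flagged well above background. Genes at least 2-fold apart were counted over the whole array as a rule of size, with no test. Every member was named, with DLEU1 and the extreme genes of both other lists. MYLIP, LBR, and the markers given by name were chosen after their values were seen. Members, lists and settings were chosen with earlier results of these data known. A total of 17 alternatives were run, with limma 3.58.1 for normexp (offset 50) and statsmodels 0.14.6 for loess (span 0.3). The steps were tested on simulated data. Promoters came from RefSeq.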

Additional observations from a re-analysis of the deposited data

How the results depend on the processing

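No paired analysis was possible because each vector had 1 array, and for the same reason no replicate could be left out. Of 169 values for the lists and counts, 108 stayed within the spot SD (counts within 1.5 times) and 61 moved further. Of 508 values for the 34 single genes, 181 moved by more than the spot SD, and 16 values in 11 genes changed sign, none of them a gene past 2-fold. Medians are given in the order members, early enzymes, late enzymes, SREBP machinery, sterol transport, LXR and efflux, fatty acid synthesis, other sterol genes and other lipid genes, and the cause of each move was not tested. With median scaling they were 0.20, -0.23, 0.39, 0.81, 0.30, 0.70, 0.15, -0.11 and -0.13, with 3 members 2-fold higher (7.73% of all genes). With the 75th percentile of detected probes they were 0.42, -0.0016, 0.62, 1.04, 0.52, 0.92, 0.37, 0.11 and 0.093. With spike-in scaling they were -0.15, -0.58, 0.041, 0.47, -0.053, 0.35, -0.20, -0.46 and -0.48, with 1 member 2-fold higher and 4 lower (4.56% and 24.1% of all genes). Quantile normalization moved those of the members (0.48), early (0.021) and late enzymes (0.63), fatty acid (0.39) and other lipid genes (0.073). Loess moved the same medians (0.50, 0.048, 0.65, 0.42 and 0.091) and that of the SREBP machinery (1.03), with 8 members higher (10.1% of all genes). Normexp moved SREBP machinery (0.84), sterol transport (0.32) and LXR and efflux (0.69), with 2 members higher (5.54% of all genes). No filter put LXR and efflux at 0.93, and a signal of at least 100, which leaves out SC5D, put the late enzymes at 0.41. The mean and the median of a gene's probes both put the late enzymes at 0.61, SREBP machinery at 0.55 and fatty acid synthesis at 0.13, and the mean put other sterol genes at -0.16. Taking off the median of the 100 nearest spots gave 0.77 for SREBP machinery, 0.90 for LXR and efflux and 0.16 for fatty acid synthesis. At 1.5-fold 11 members were higher and 2 lower (18.4% and 22.0% of all genes), and at 3-fold 1 was higher and 1 lower (3.82% and 3.31% of all genes). Over all genes, 1858 were 2-fold higher and 1981 lower, against 924 and 4875 with spike-in scaling, 4232 and 3807 with no filter, 3731 and 4459 at 1.5-fold, and 774 and 671 at 3-fold. Normexp left 1121 higher and a signal of at least 100 left 1026.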
